A study of Mus musculus with 14 samples.

Results

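The expression of 9 genes of the EGFR and HGF growth factor systems was compared across 4 groups of mouse livers. The genes were chosen by name, as the receptor genes Egfr and Met, the EGFR ligand genes Hbegf, Areg, Ereg, Btc and Tgfa, the feedback inhibitor gene Errfi1, and Hgf, and all 9 were found among the 17656 genes of each table. The study asked how loss of YTHDF1, a protein that reads the m6A mark on RNA, alters the hepatitis that concanavalin A (ConA), a T cell-activating lectin, causes in mice. Saline was given to 3 WT and 3 KO mice and ConA to 4 WT and 4 KO mice, KO being the abbreviation used here for the genotype Ythdf1-/-, and each mouse gave 1 liver RNA library. All mice were 8 weeks old and were killed 8 h after a tail vein injection of saline or of ConA at 8 mg/kg. The animals were C57BL/6 mice and the knockout was made with CRISPR/Cas9, without restriction to a cell type. Values are TPM, the number of transcripts of a gene per 1000000 transcripts of a library after correction for gene length. In whole liver RNA, fewer cells of a type and less RNA per cell cannot be told apart.

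EGFR is a receptor tyrosine kinase on hepatocytes. Its ligands are made as membrane precursors, and metalloproteases such as ADAM17 release them from the cell surface. ERRFI1, also called MIG6, binds the active EGFR kinase and inhibits it. HGF is a growth factor secreted in liver mainly by stellate and endothelial cells as an inactive chain, which proteases cleave before it can act on its receptor MET on hepatocytes. Both systems are known for driving hepatocyte proliferation and survival after liver injury.

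The libraries did not all stand at equal distance from each other. WT saline replicates 2 and 3 were nearly identical, with a median size of the log2 ratio of 0.0468 over 1033 genes with a mean TPM of 100 or more, while the other 17 replicate pairs gave 0.104–0.367. For the 9 genes, a call that changed with this pair averaged into 1 library is given beside the result. ConA replicates 3 of both genotypes stood apart from the other ConA libraries on the second principal component, at -40.3 (WT) and -22.6 (KO) against -0.216 to 17.3. Ythdf1 itself had 12.03–13.9 TPM in WT saline and 18.4–20.8 TPM in KO saline. After ConA it had 18.7–25.6 TPM in WT and 15.5–26.2 TPM in KO mice. Its RNA was thus not lower in KO saline and overlapped after ConA. The reason was not tested, and these values of the whole gene do not check the genotype label. The study describes male mice. Of 3 Y-linked genes, Ddx3y and Eif2s3y did not exceed 0.02 and 0.07 TPM in any of the 14 libraries and Uty had 0.87–2.12 TPM.

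Egfr, Hbegf and Met were called after ConA in both genotypes. Calls were made in limma, on log2(TPM + 1), at a Benjamini-Hochberg adjusted p under 0.05, and a gene entered a test once its TPM was 1 or more in a number of libraries equal to the smaller group's size. In WT mice, 6 of the 9 genes were tested and 3 were called, with Egfr and Hbegf higher and Met lower after ConA, where 53% of all tested genes were called. In KO mice, 7 of the 9 were tested and all 7 were called, with Egfr, Hbegf, Areg, Ereg, Tgfa and Errfi1 higher and Met lower, where 64.6% of all tested genes were called. Calls were frequent among all genes, and the WT count is near that background. A gene had to reach a TPM of 1 in at least 3 libraries to be tested, so Hbegf, Areg and Ereg entered the KO comparison, and Hbegf and Btc the WT comparison, only through their ConA values, and the genes tested are not all members. The comparison after ConA needed 4 libraries at that level, which Ereg reached through the KO mice alone. Between the genotypes, Met was the 1 call of 4 genes tested in saline (19.2% of all genes were called), and 0 of 8 genes tested were called after ConA (0.428% of all genes were called). Of these 8, Hbegf, Ereg and Errfi1 had an unadjusted p under 0.05 after ConA, as had 1753 of all 10519 genes tested. The difference between the ConA responses of the genotypes, tested as an interaction, was called for Hbegf of 8 genes tested, where 4.78% of all genes were called. For the interaction, 3 libraries of any group at that level sufficed. Hbegf, Areg, Ereg and Btc reached this only through their ConA values, and Ereg through KO mice alone. The plot of TPM by mouse shows the 9 genes on their own scales.

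**Figure D1:**
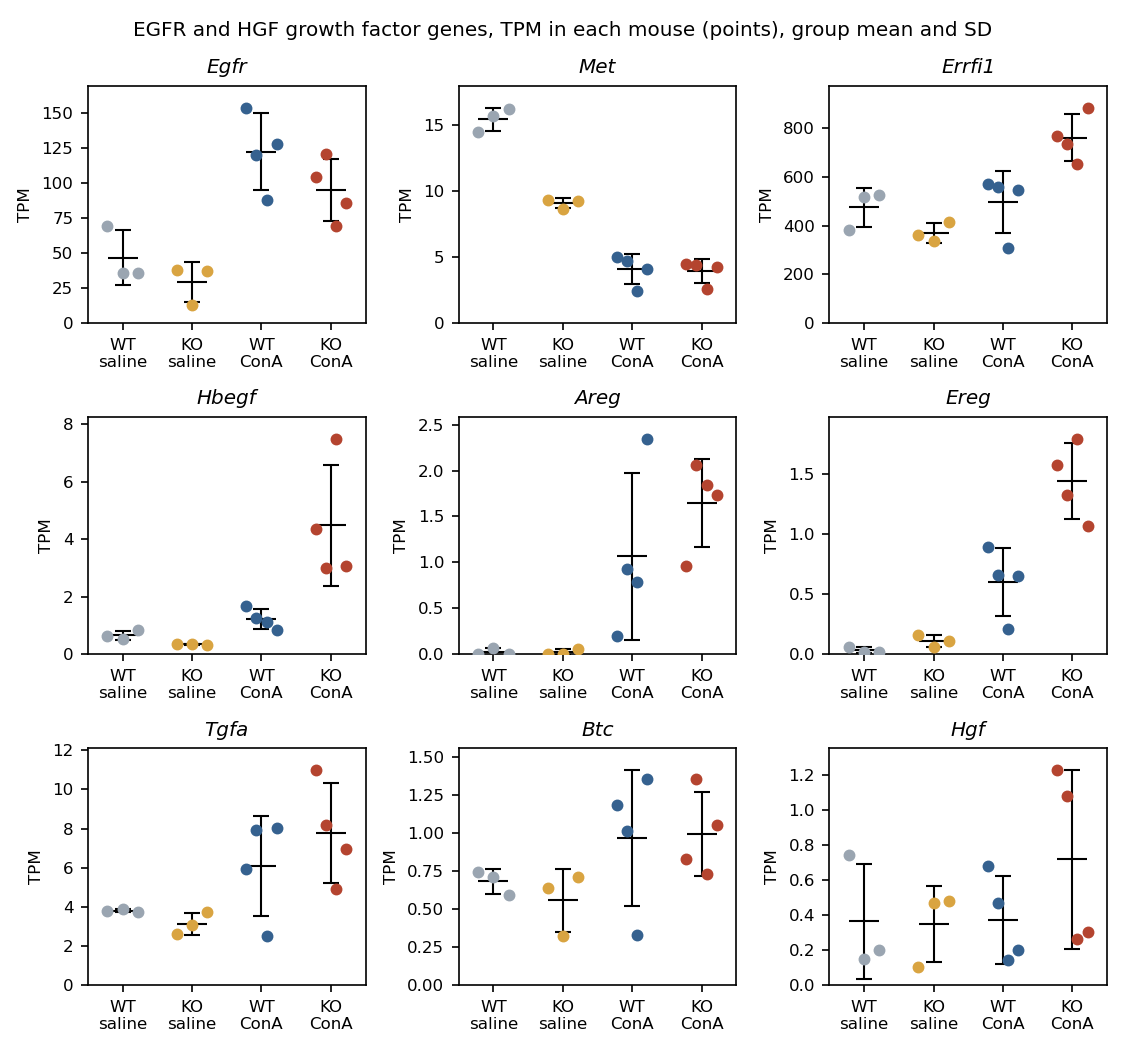
TPM (vertical axes, each gene on its own linear scale from 0) of the 9 genes in each mouse (points) in the saline and ConA groups of both genotypes, with the group mean and SD as horizontal lines and bars. After ConA, Hbegf, Ereg and Errfi1 were higher in all 4 KO mice than in all 4 WT mice, and Met was below its saline values in all 8 mice.

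The promoters of Areg and Errfi1 are shown because both genes rose with ConA in KO mice and share a motif, and that of Met because it moved the other way. In RefSeq windows of GRCm38.p6 that run from 250 bases before to 50 bases after a transcript start, 7 of the 9 genes were represented, by 9 windows. Hbegf and Ereg had no window and were not searched for motifs. Capitals mark the cAMP response element TGACGTCA in Areg (chr5:91139349-91139648, + strand) and Errfi1 (chr4:150854820-150855119, + strand), and the AP-1 site TGACTCA, here read on the opposite strand, in Met (chr6:17463707-17464006, + strand).
Areg: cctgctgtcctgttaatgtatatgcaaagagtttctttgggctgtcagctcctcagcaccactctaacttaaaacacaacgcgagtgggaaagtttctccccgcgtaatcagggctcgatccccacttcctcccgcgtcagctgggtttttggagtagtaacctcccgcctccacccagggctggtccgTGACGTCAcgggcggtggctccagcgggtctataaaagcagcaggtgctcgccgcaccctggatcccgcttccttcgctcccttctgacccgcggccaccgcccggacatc
Errfi1: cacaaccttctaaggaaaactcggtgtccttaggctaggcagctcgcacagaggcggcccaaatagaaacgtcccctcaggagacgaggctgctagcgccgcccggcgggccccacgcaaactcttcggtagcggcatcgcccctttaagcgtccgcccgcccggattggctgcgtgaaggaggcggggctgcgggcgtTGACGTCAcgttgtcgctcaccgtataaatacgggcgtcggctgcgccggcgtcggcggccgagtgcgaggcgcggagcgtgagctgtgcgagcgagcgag
Met: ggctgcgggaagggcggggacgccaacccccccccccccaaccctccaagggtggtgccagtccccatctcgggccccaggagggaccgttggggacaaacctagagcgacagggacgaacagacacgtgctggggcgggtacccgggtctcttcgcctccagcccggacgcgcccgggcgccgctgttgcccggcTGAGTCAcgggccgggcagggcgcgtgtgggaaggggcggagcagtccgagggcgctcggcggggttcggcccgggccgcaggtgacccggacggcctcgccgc

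The element began 61 bases before the start in Areg and 51 bases before it in Errfi1, and the Met site began 54 bases before the start. On both strands, TGACGTCA was found in 1.79% and TGACTCA in 5.2% of 32851 such windows of all genes. A match to the NF-kB motif was found in the Tgfa window, as in 8.46% of windows, and no match to the serum response CArG box was found in the members' windows (1.63% of windows). The windows of Egfr, Hgf and Btc, and a second window of Errfi1, held none of these 4 motifs. These letters are descriptions of the windows and no binding was measured here.

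Egfr (chr11:16752203-16913907, + strand, GRCm38.p6) was higher after ConA in both genotypes. It had 69.5, 35.45 and 35.4 TPM in the WT saline mice and 37.8, 12.8 and 37.5 TPM in the KO saline mice. After ConA it had 154, 120.4, 87.9 and 128 TPM in WT and 104, 121, 69.6 and 85.6 TPM in KO mice. Every ConA mouse was above every saline mouse, although the lowest KO ConA value lay only just above the highest WT saline value. The mean rose 2.62-fold in WT mice (log2 fold change 1.42, SE 0.27, limma adjusted p = 0.00169) and 3.24-fold in KO mice (1.78, SE 0.33, adjusted p = 0.000721). From lowest to highest mean the order was KO saline, WT saline, KO ConA and WT ConA, with overlapping genotypes within each treatment. The difference of KO from WT after ConA was -0.36 (95% interval -0.82 to 0.09, limma adjusted p = 0.413), and in saline it was -0.73 (adjusted p = 0.252).

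Met (chr6:17463349-17573980, + strand), the HGF receptor, fell in both genotypes. It had 14.5, 15.7 and 16.2 TPM in WT saline and 9.33, 8.63 and 9.24 TPM in KO saline. After ConA it had 4.99, 4.70, 2.45 and 4.11 TPM in WT and 4.46, 4.42, 2.60 and 4.24 TPM in KO mice. The WT saline, KO saline and ConA values did not overlap, while the ConA values of the genotypes did, and ConA replicate 3 was the lowest of its group in both. Met was 3.8-fold lower after ConA in WT mice (log2 fold change -1.73, SE 0.20, limma adjusted p = 9.87e-05) and 2.31-fold lower in KO mice (-1.05, SE 0.18, adjusted p = 0.000426). In saline it was 1.70-fold lower in KO than in WT mice (-0.71, SE 0.08, limma adjusted p = 0.00697).

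That saline call rested on WT saline replicates 2 and 3. With the pair averaged, Met differed by -0.69 (limma adjusted p = 0.0614), and without replicate 2 or replicate 3 alone the adjusted p was 0.0583 or 0.0648. Over 15 alternative settings it ranged from 0.0049 to 0.0753, and Met was called in 10 of them. The number of calls among all genes moved with the pair as well, from 2009 to 55 when it was averaged. After ConA the genotypes differed by -0.03 in Met (95% interval -0.51 to 0.45, adjusted p = 0.966). The smaller fall in KO mice gave an interaction of 0.68 (SE 0.27, limma adjusted p = 0.139), which was called only without both ConA replicates 3 (0.65, adjusted p = 0.0113), 1 of 23 settings.

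Of the 5 EGFR ligand genes, Hbegf, Areg, Ereg and Tgfa rose in KO mice. In WT mice Hbegf was called, while Areg and Ereg were below the filter and are given further on in a fit without it, in which Hbegf was not called (limma adjusted p = 0.0524). Tgfa had the highest TPM of the 5 in all saline mice. Because the fit adds 1 to each TPM, the log2 fold changes of the ligands, most of which lie near or below 1 TPM, are understated. With a pseudocount of 0.1 the rises in KO mice were 3.29 for Hbegf, 3.85 for Areg and 2.88 for Ereg.

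Hbegf encodes heparin-binding EGF-like growth factor, which also binds ERBB4. It had 0.62, 0.52 and 0.83 TPM in WT saline and 0.35, 0.34 and 0.32 TPM in KO saline. After ConA it had 1.69, 1.26, 1.12 and 0.84 TPM in WT and 4.36, 3.0, 7.51 and 3.08 TPM in KO mice. None of the 4 groups overlapped, in the order KO saline, WT saline, WT ConA and KO ConA, though the highest WT saline and the lowest WT ConA value differed by little. The mean rose 13.3-fold in KO mice (log2 fold change 1.97, SE 0.25, limma adjusted p = 4.14e-05). In WT mice it was 1.87-fold higher (0.42, SE 0.16, adjusted p = 0.0487), a borderline call that held in 5 of 15 settings (0.0259–0.167) and was lost with the WT saline pair averaged (adjusted p = 0.0990). It was also lost without any one of the 3 WT saline mice (0.0643–0.167) and without WT ConA replicate 1 (adjusted p = 0.102) or replicate 2 (0.0973).

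After ConA, mean Hbegf was 3.66-fold higher in KO than in WT mice. The log2 difference was 1.24 (SE 0.24, 95% interval 0.70–1.78), and its limma adjusted p was 0.0607. It passed the threshold with all 14 libraries in the fit (adjusted p = 0.0057) and with the replicate number as a block (0.0486), 2 of 15 settings that ranged to 0.132. The response to ConA was larger in KO mice by 1.55 (SE 0.31, 95% interval 0.89–2.21, limma adjusted p = 0.0253). This interaction held in 16 of 22 settings (0.00805–0.114). With the WT saline pair averaged it was 1.54 with an adjusted p of 0.0842, without WT saline replicate 2 or 3 the adjusted p was 0.0759 or 0.0908, and without KO saline replicate 1 or 2 it was 0.0755 or 0.0543. Rescaling of the libraries to a common median ratio moved the median interaction of all genes by -0.11, and that of Hbegf was then 1.48 (adjusted p = 0.0412).

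Areg (chr5:91139599-91148432, + strand) encodes amphiregulin and Ereg (chr5:91074617-91093649, + strand) encodes epiregulin, and both genes lie on chromosome 5 near Btc. Areg had 0, 0.07 and 0 TPM in WT saline and 0, 0 and 0.06 TPM in KO saline, and 0.20, 0.93, 0.78 and 2.35 TPM in WT ConA against 0.96, 2.06, 1.84 and 1.73 TPM in KO ConA. Every ConA mouse was above every saline mouse, and the ConA values of the genotypes overlapped. Areg rose in KO mice (log2 fold change 1.36, SE 0.17, limma adjusted p = 4.2e-05), and after ConA the genotypes differed by 0.44 (adjusted p = 0.477). Ereg had 0.06, 0.02 and 0.02 TPM in WT saline and 0.16, 0.06 and 0.11 TPM in KO saline. It had 0.89, 0.66, 0.21 and 0.65 TPM in WT ConA and 1.58, 1.33, 1.80 and 1.07 TPM in KO ConA, so that all KO ConA mice were above all WT ConA mice, and these above all saline mice, whose genotypes overlapped. Mean Ereg rose 13.1-fold in KO mice (1.13, SE 0.15, limma adjusted p = 5.49e-05) and was 2.40-fold higher in KO than in WT mice after ConA (0.62, SE 0.17, adjusted p = 0.116). The latter was called with all 14 libraries in the fit (adjusted p = 0.0211), 1 of 15 settings.

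Neither Areg nor Ereg reached the level needed for a test in WT mice. In a fit without any filter on TPM, the WT difference was 0.91 for Areg (limma adjusted p = 0.0437) and 0.61 for Ereg (adjusted p = 0.00917), and the WT ConA values of both lay above all WT saline values. Exons of Ereg overlap those of Gm19610, exons of Tgfa those of Gm43917 and exons of Hgf those of Gm43489, and whether the counting used the strand was not given in the sources used here.

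Tgfa (chr6:86195038-86275744, + strand) encodes transforming growth factor alpha, a ligand of EGFR. It had 3.78, 3.87 and 3.73 TPM in WT saline, 2.62, 3.06 and 3.73 TPM in KO saline, 5.94, 7.92, 2.51 and 8.01 TPM in WT ConA and 11.02, 8.16, 4.93 and 6.98 TPM in KO ConA. The KO groups did not overlap, and Tgfa rose 2.48-fold there (log2 fold change 1.05, SE 0.23, limma adjusted p = 0.00207). In WT mice ConA replicate 3 lay below all saline values and the difference was 0.47 (adjusted p = 0.220). Without that library it was 0.78 (adjusted p = 0.00104), the 1 call in 16 settings. After ConA the genotypes overlapped and differed by 0.35 (adjusted p = 0.629).

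Btc (chr5:91357261-91402994, - strand) encodes betacellulin, which binds EGFR and ERBB4. It had 0.59–0.74 TPM in WT saline, 0.32–0.71 TPM in KO saline, 0.33–1.35 TPM in WT ConA and 0.73–1.35 TPM in KO ConA. The KO groups just failed to overlap, but Btc was not tested there, and in WT mice the difference was 0.20 (limma adjusted p = 0.430). Without WT ConA replicate 3, the lowest of its group at 0.33 TPM, that difference was 0.37 (adjusted p = 0.0221), the 1 call in 15 settings. Between the genotypes after ConA the difference was 0.04 (adjusted p = 0.945).

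Summed over the 5 ligand genes, the level was 5.17–5.20 TPM in WT saline and 3.77–4.93 TPM in KO saline. It was 4.95–13.2 TPM in WT ConA and 13.9–18.8 TPM in KO ConA, so that each KO ConA mouse was above each WT ConA mouse. The makeup of the sum differed too. Tgfa gave 69.5% to 81.0% of it in KO saline and 29.3% to 58.8% in KO ConA, while Hbegf gave 6.49% to 9.28% and 18.9% to 44.7%. In WT mice Hbegf gave 10.02% to 16.1% of the sum in saline and 6.36% to 22.6% after ConA. KO ConA replicate 3 was the mouse in which Hbegf exceeded Tgfa, at 7.51 against 4.93 TPM. These sums and shares are descriptions and were not tested.

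**Figure D2:**
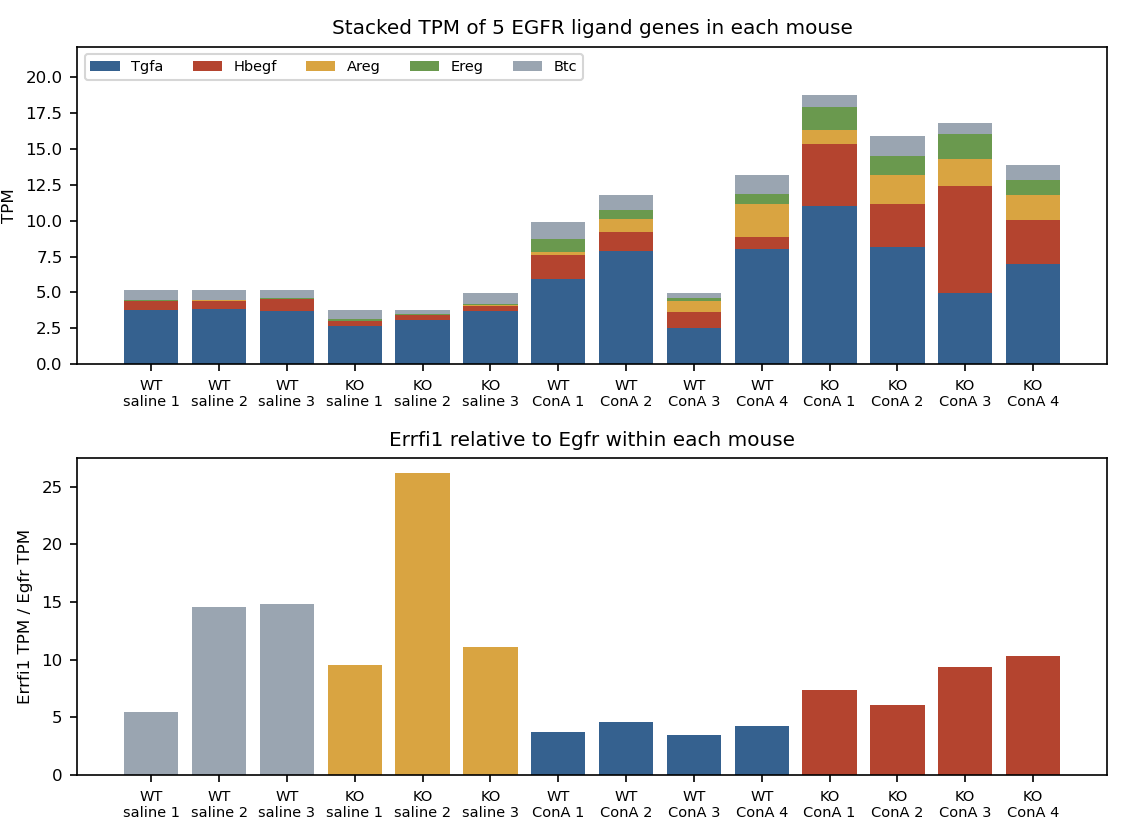
Upper panel, TPM of the 5 EGFR ligand genes (colours) stacked for each of the 14 mice. The KO ConA stacks of 13.9–18.8 TPM all exceed the WT ConA stacks of 4.95–13.2 TPM. Lower panel, Errfi1 TPM divided by Egfr TPM in each mouse (bars, coloured by group), which was 3.51–4.64 in WT ConA and 6.08–10.3 in KO ConA.

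Errfi1 (chr4:150853796-150868889, + strand), whose promoter was shown beside that of Areg, was the most highly expressed of the 9 genes in every group. It had 382, 517 and 525 TPM in WT saline and 361, 335 and 416 TPM in KO saline. After ConA it had 572, 559, 308 and 547 TPM in WT and 768, 734, 652 and 884 TPM in KO mice. All 4 KO ConA mice were above all other mice, while the remaining 3 groups overlapped and WT ConA replicate 3 was the lowest value of all. Errfi1 rose 2.05-fold in KO mice (log2 fold change 1.03, SE 0.13, limma adjusted p = 5.25e-05), and the WT difference was 0.04 (95% interval -0.48 to 0.56, adjusted p = 0.907). After ConA it was 1.53-fold higher in KO than in WT mice (0.65, SE 0.20, 95% interval 0.21–1.08), with a limma adjusted p of 0.145, and it was called in 0 of 16 settings (0.0510–0.314).

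The interaction for Errfi1 was 0.99 (SE 0.28, limma adjusted p = 0.0538). Over 23 settings its adjusted p ranged from 0.0164 to 0.167 and it was called in 8. Among these were each setting that left out 1 of the 4 WT ConA libraries (0.0402–0.0499), WT saline replicate 1 left out (adjusted p = 0.0434), and both ConA replicates 3 left out (0.85, adjusted p = 0.0164). In saline, KO differed from WT by -0.35 (adjusted p = 0.131), which passed only without WT saline replicate 1 (-0.49, adjusted p = 0.0332). Within each mouse, the ratio of Errfi1 to Egfr TPM was 5.49–14.8 in WT saline, 9.55–26.2 in KO saline, 3.51–4.64 in WT ConA and 6.08–10.3 in KO ConA. The ratios of the ConA groups did not overlap.

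Hgf (chr5:16553495-16619439, + strand) was near the floor of these libraries and was tested in no comparison. It had 0.74, 0.15 and 0.20 TPM in WT saline, 0.10, 0.47 and 0.48 TPM in KO saline, 0.68, 0.47, 0.14 and 0.20 TPM in WT ConA and 1.23, 1.08, 0.26 and 0.30 TPM in KO ConA. All 4 groups overlapped, with KO ConA replicates 1 and 2 highest. In the fit without a filter the differences were 0.02 in WT mice (limma adjusted p = 0.949), 0.31 in KO mice (adjusted p = 0.309) and 0.29 between the genotypes after ConA (adjusted p = 0.605).

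Counted by overlap alone, the groups were apart for 3 of 6 tested members in WT mice given ConA or saline (58% of all tested genes) and for all 7 tested in KO mice (64.3% of all tested genes). Between the genotypes they were apart for 1 of 4 tested in saline, Met, lower in KO mice (42.3% of all tested genes), and for 3 of 8 tested after ConA, Hbegf, Ereg and Errfi1, all higher in KO mice (10.5% of all tested genes). Some of these genes passed the filter only through the group where they were higher, which favours their separation. These were Hbegf in WT mice, Hbegf, Areg and Ereg in KO mice, and Ereg between the genotypes after ConA. Hbegf in saline, also apart, was below the filter and not tested, and without the filter its difference was -0.31 (limma adjusted p = 0.0630). The plot of fitted differences sets the comparisons of the 9 genes side by side.

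**Figure D3:**
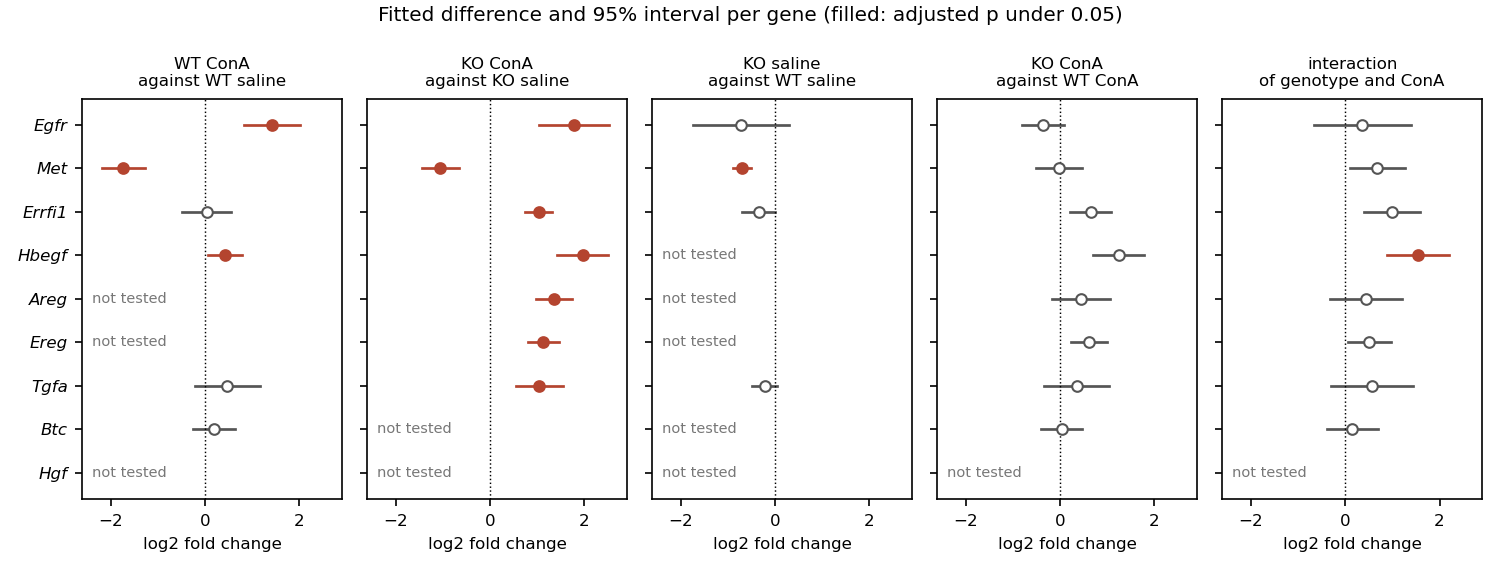
Fitted log2 fold changes on the log2(TPM + 1) scale (horizontal axes) with 95% intervals (lines) for the 9 genes in the 4 group comparisons and in the interaction. Filled red points have a limma adjusted p under 0.05, open points do not, and genes below the TPM filter are marked as not tested. In KO ConA against WT ConA no point is filled, and the intervals of Hbegf, Ereg and Errfi1 lie above 0.

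The genes whose profile over the 14 libraries was most like that of a member were named by the smallest root mean square difference of centred log2(TPM + 1) values among 11327 genes. For Hbegf they were Cxcl5 (0.25), Sele (0.25) and Ccl22 (0.26), which encode a neutrophil-attracting chemokine, the endothelial adhesion molecule E-selectin and a T cell-attracting chemokine. Their levels in KO ConA and WT ConA, whose separation follows from the choice by this profile, were 1.14–3.86 against 0.13–0.53 TPM for Cxcl5, 1.73–3.34 against 0.26–1.31 TPM for Sele and 1.5–4.35 against 0.4–1.1 TPM for Ccl22. For Ereg they were Spsb1 (0.09), Slc7a1 (0.10) and Cdca4 (0.12), for Errfi1 Ttc39b (0.11), Gtpbp4 (0.12) and Sec24b (0.12), and for Met Atl3 (0.12), Dynll2 (0.13) and Tmem106b (0.14). Those of Egfr were Arf2 (0.38), Il18bp (0.40) and Pdia6 (0.40). These differences are not scaled to a member's own spread, which was 0.98 (SD over the 14 libraries, log2 scale) for Egfr and 0.26 for Btc. Those of Areg were Arpin, Cd8b1 and Trub2 (0.25 each), those of Tgfa Hnrnpm (0.13), Ascc3 (0.13) and Ubxn7 (0.15), and those of Btc Tax1bp1, Ddx42 and Hace1 (0.11 each).

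Of 60 other genes of the 2 systems, 45 were tested in WT mice and 12 were higher and 11 lower after ConA. In KO mice 47 were tested, of which 25 were higher and 13 lower. Over all tested genes, 53% were called in WT mice, a share near that of the pathway genes, and 64.6% in KO mice. The median log2 fold change of the tested pathway genes was 0.14 in WT and 0.44 in KO mice, against -0.07 and 0.07 over all tested genes. Without WT ConA replicate 3 the WT counts were 21 higher and 11 lower, and with the WT saline pair averaged they were 8 higher and 9 lower. Of all 10768 genes tested in WT mice, 7083 were called without that ConA library and 4567 with the pair averaged. After ConA, 0 of 47 tested genes were called between the genotypes (0.428% of all tested genes were called), with a median of 0.16 against 0.05 over all genes. With all 14 libraries in the fit 2 were higher and 4 lower, where 640 of all 10519 tested genes were called. In saline 4 of 42 were lower in KO mice (among them Erbb3, Mst1 and Araf) and 0 were higher, where 19.2% of all tested genes were called. None of the 4 was called with WT saline replicates 2 and 3 averaged or without either of them. Without KO saline replicate 3, 12 were lower, where 2743 of all 10459 tested genes were called.

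Of 6 genes of ligand shedding, 5 were tested, of which 3 were called in WT mice and 5 in KO mice, each higher after ConA, where 53% and 64.6% of all tested genes were called in either direction. The median log2 fold change of the 5 was 0.84 in WT and 0.99 in KO mice. Of the WT calls, that of Adam9 was lost with the WT saline pair averaged and held in 7 of 16 settings (adjusted p of 9.42e-05 to 0.098). Rhbdf2, which encodes iRhom2, the partner that brings ADAM17 to the cell surface, rose from 2.65–3.3 TPM in WT saline to 16.7–21.8 TPM in WT ConA (log2 fold change 2.34, limma adjusted p = 3.07e-06) and by 2.45 in KO mice (adjusted p = 1.4e-07). Adam9, a metalloprotease gene, had 17.3–49.7 TPM in WT ConA and 45.6–67.2 TPM in KO ConA, a difference of 0.72 (adjusted p = 0.249). Adam17 rose by 0.99 in KO mice (limma adjusted p = 0.00183), and its WT difference was 0.43 (adjusted p = 0.148).

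Among ERBB receptors and other ligands, Erbb3, a receptor of neuregulins, fell from 24.7–26.4 TPM in WT saline to 8.40–17.1 TPM in WT ConA (log2 fold change -1.0, limma adjusted p = 0.00672). Nrg4, which encodes a ligand of ERBB4, rose from 12.2–14.4 TPM to 91.6–119 TPM (2.83, adjusted p = 7.53e-07) and by 3.21 in KO mice (adjusted p = 1.14e-06). Nrg1 was 1.11–1.83 TPM in KO ConA and 0.40–1.07 TPM in WT ConA, a difference of 0.50 (limma adjusted p = 0.164). Of the 9 genes of EGFR turnover and restraint, 1 was called in WT mice, the ubiquitin ligase gene Rnf41 (0.63, adjusted p = 0.00931). In KO mice 6 were called, all higher. Over all tested genes, 53% were called in WT and 64.6% in KO mice, in either direction. Cblb, another ubiquitin ligase gene, differed by 0.40 between the genotypes after ConA (adjusted p = 0.322).

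In the RAS-ERK cascade, calls went both ways, 3 higher and 5 lower of 16 tested in WT mice and 8 higher and 5 lower of 17 in KO mice. Over all tested genes, 53% were called in WT mice, a share near that of the cascade, and 64.6% in KO mice. Of the WT calls, those of Araf and Map2k2 were lost with the WT saline pair averaged and held in 7 and 6 of 16 settings (limma adjusted p up to 0.259 and 0.452). Mapk3, which encodes the kinase ERK1, fell by 1.07 on the log2 scale in WT mice (limma adjusted p = 0.000154) and Nras rose by 0.94 there. Araf differed by -0.43 between the genotypes after ConA (adjusted p = 0.164).

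Of 8 genes of proteases that activate HGF, 5 were tested, and 3 of them were lower and 1 higher after ConA in WT mice and 4 lower and 1 higher in KO mice, beside the same shares of all tested genes. F11 was the 1 that was higher in each, a WT call that was lost with the WT saline pair averaged and held in 9 of 16 settings (limma adjusted p of 0.0124–0.136). Klkb1, the plasma kallikrein gene, fell from 104–113 TPM in WT saline to 8.85–14.6 TPM in WT ConA (log2 fold change -3.16, limma adjusted p = 1.5e-06) and changed by -3.45 on the log2 scale in KO mice. Hpn, which encodes the hepatocyte protease hepsin, had 239.7–289 TPM in WT ConA and 154–203 TPM in KO ConA, groups that did not overlap and differed by -0.50 (adjusted p = 0.0897). Spint2, an inhibitor gene of these proteases, had 100.7–136 TPM in WT ConA and 73.1–94.2 TPM in KO ConA, a difference of -0.45 (adjusted p = 0.144), and its interaction of -0.78 was called (limma adjusted p = 0.0379).

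Among MET partners and the related MSP system, Plxnb2, a plexin gene, fell by 0.77 on the log2 scale in WT mice (limma adjusted p = 0.00114). Sdc1, which encodes the heparan sulfate proteoglycan syndecan-1, had 59.8–125 TPM in WT ConA and 146–194 TPM in KO ConA. The difference was 0.90 (limma adjusted p = 0.0710), and the interaction of 1.17 was called (adjusted p = 0.0462). Sdc1 (higher) and Spint2 (lower) were the 2 interaction calls of 47 genes tested, near the share of all tested genes, 4.78%. The calls became 8 higher and 1 lower without both ConA replicates 3, where 1586 of all 11327 genes were called. The adjusted p ranged over 23 settings from 0.0289 to 0.159 for Sdc1 (called in 7) and from 0.0267 to 0.118 for Spint2 (called in 12). Neither was called with the WT saline pair averaged, nor without WT saline replicate 2 or 3 or KO saline replicate 1 or 2. The heatmap of the other pathway genes sets their fitted differences side by side.

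**Figure D4:**
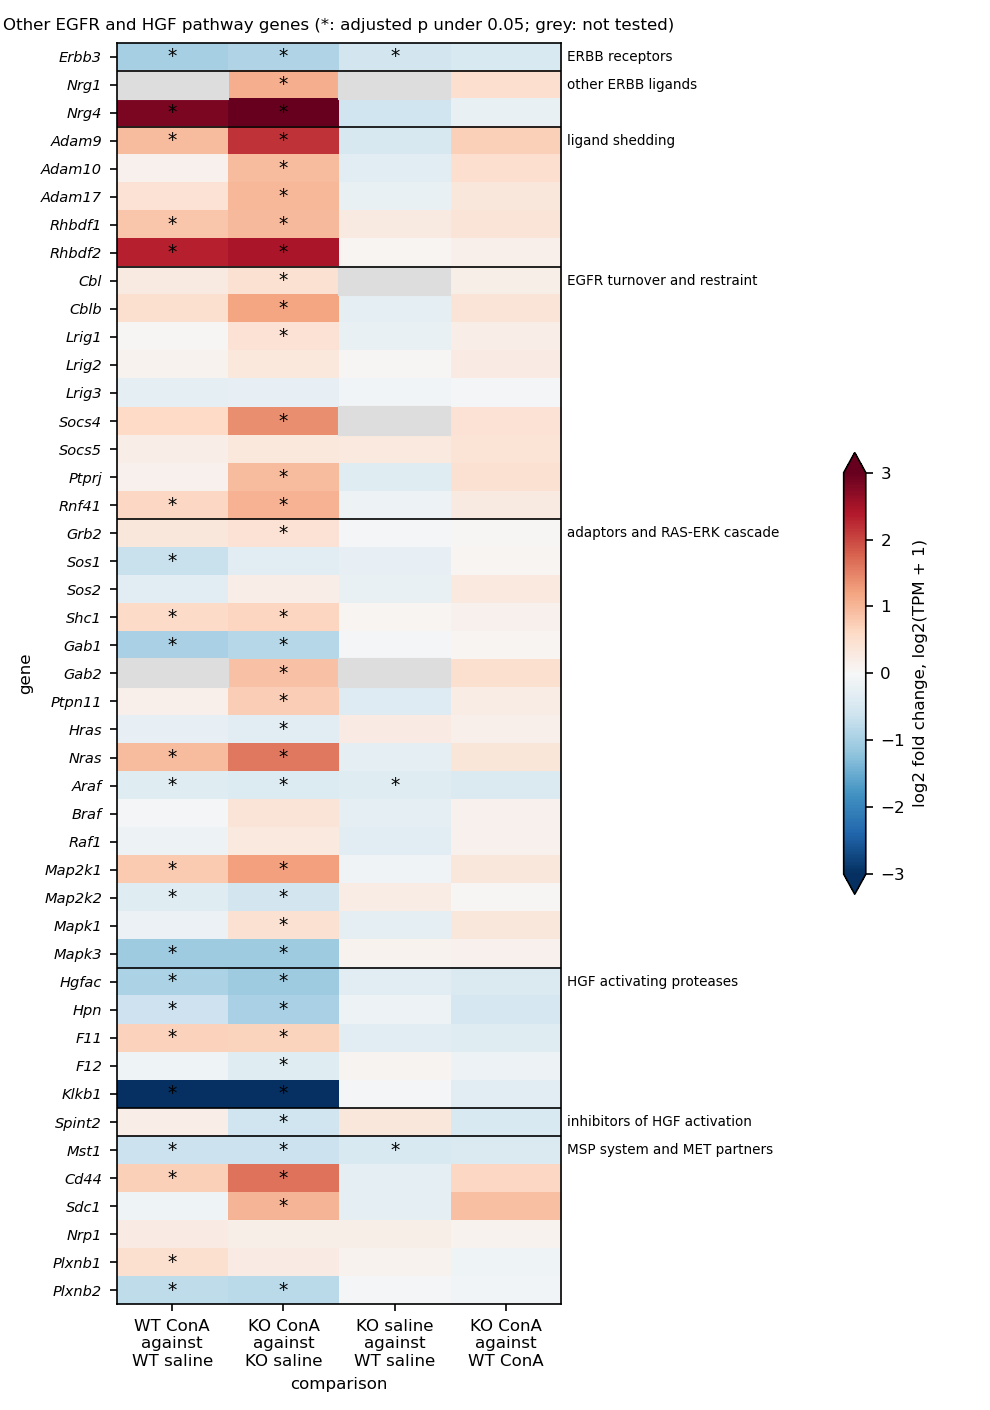
Fitted log2 fold changes (colour, log2(TPM + 1) scale, saturated beyond 3 in size) of the other genes of the EGFR and HGF systems (rows, grouped by list) in 4 comparisons (columns). Asterisks mark a limma adjusted p under 0.05 and grey marks genes not tested, and the KO ConA against WT ConA column holds no asterisk.

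The cell type markers moved with ConA, and their part in the results above was not tested. The 5 hepatocyte markers in the tables summed to 99560–124900 TPM in the 6 saline mice and 48680–77640 TPM in the 8 ConA mice and had the highest sum of the 8 lists in every library. Of these 5, 3 were called lower after ConA in WT and 4 in KO mice, and 0 higher. Hnf4a had 151–164 TPM in WT saline and 141–239 TPM in WT ConA. In KO mice it had 136–160 TPM in saline and 169–233 TPM after ConA. Of all tested genes, 53% were called after ConA in WT mice, 64.6% in KO mice and 19.2% between the genotypes in saline. Neutrophil markers summed to 5.30–11.1 TPM in saline, 318–560 TPM in WT ConA and 413–953 TPM in KO ConA, after ConA mostly from S100a8 and S100a9. Counted by gene, 6 of 7 tested were called higher after ConA in each genotype, and 0 lower. Ly6g, of the same list, had 0.57–5.04 TPM in WT saline and 0.18–1.64 TPM in WT ConA. Kupffer cell markers summed to 25.3–105 TPM in saline and 4.74–28.4 TPM after ConA. Of 6 tested, 5 were called lower after ConA in WT mice and 3 in KO mice, and 0 higher. Stellate cell markers summed to 33.3–129 TPM in WT saline, 155–252 TPM in KO saline, 54.5–129 TPM in WT ConA and 92.5–180.5 TPM in KO ConA, mostly from Dcn and Ecm1. Dcn had 52.9, 13.2 and 14.4 TPM in the WT saline mice. Counted by gene, 1 of 3 tested was called lower after ConA in WT mice and 5 of 8 in KO mice, and 0 higher. Between the genotypes in saline, 3 of 8 tested were higher in KO mice. Sinusoidal endothelial markers summed to 11.6–46.6 TPM over all libraries, and of 7 tested, 2 were called higher and 3 lower after ConA in WT mice and 2 higher and 4 lower in KO mice. In saline 4 of 6 tested were higher in KO than in WT mice. For these saline calls of stellate and endothelial markers, no fit with WT saline replicates 2 and 3 averaged is given. That setting took the saline calls among all genes from 2009 to 55. T cell markers summed to 0.95–5.72 TPM, and 0 of 7 reached the level for a test in WT mice and 1 in KO mice. Cholangiocyte markers summed to 47.2–58.0 TPM in WT saline, 85.1–90.7 TPM in KO saline, 20–33.1 TPM in WT ConA and 38.7–57.2 TPM in KO ConA, mostly from Spp1, which had 41.1–53.1 TPM in WT saline and 10.7–23.1 TPM in WT ConA. Counted by gene, 3 cholangiocyte markers were called higher and 1 lower in WT mice and 1 higher and 1 lower in KO mice. Monocyte markers summed to 275–444 TPM over all libraries, of which F10, a coagulation factor gene, gave 234–397 TPM. Of 4 monocyte markers tested, 3 were called higher after ConA in each genotype, and 1 was called lower in KO mice. Between the genotypes after ConA, 0 genes of the 8 marker lists were called, and no marker in the tables was at 0 throughout a group.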

How the data were processed

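Liver RNA of 14 mice was sequenced by the authors on a BGISEQ-500 as single-end reads of 50 bases, with 1 library per mouse and 3 or 4 mice, called biological replicates in the labels, per group. The deposited values are TPM, computed by the authors. The submitters' processing notes name Bowtie2, RSEM 1.3.1 and GRCm38.p6, while the study's methods name STAR and HTSeq, so the tool behind the TPM was not settled. Each library sums to 1000000 TPM over 17656 genes, with 2230 to 2701 genes listed at 0. The depth is unknown, and only the spread between mice measures error.

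Groups came from the sample labels. Linear models were fitted to log2(TPM + 1) with limma 3.58.1 in R 4.3.3, using lmFit and eBayes with a mean-variance trend, over genes whose TPM was 1 or more in a number of libraries equal to the smallest group's size, with only the libraries of the groups compared, or all 14 for the interaction. P-values were adjusted over all genes tested. No count model was used. The procedure was tested on simulated data. All 9 members were named. Of each pathway list, the gene ranked first by p between the genotypes after ConA and the one ranked first by p for ConA in WT mice were named, and for each tested member the 3 genes with the most similar profile. Any other pathway gene in the text was picked with its values already in view, and some pathway genes are not reported here by name. The members and lists were chosen with earlier results of these data known. Alternatives were a pseudocount of 0.1, no filter or one at a TPM of 5, rescaled libraries, no trend, all 14 libraries, a replicate block, each library left out, and WT saline replicates 2 and 3 averaged. Leaving out both ConA replicates 3, and averaging with rescaling, were chosen after seeing the data. Promoter windows and gene positions came from RefSeq tables of GRCm38.p6, in which 17604 of the 17656 gene identifiers were found. Motifs were searched in Python 3.11.15 with pandas 2.3.3, and plots drawn with matplotlib 3.10.9.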

Additional observations from a re-analysis of the deposited data

Results flagged for a closer look

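Among the 9 genes and the WT ConA and KO ConA groups of 4 mice, 18 sets of values were examined for a single mouse far from the others, of which chance would mark about 5%, and 2 were marked. Errfi1 in WT ConA replicate 3 was 308 TPM against 547 to 572 TPM in the other 3 mice, a gap of 0.93 of the group's range. Met in KO ConA replicate 3 was 2.60 TPM against 4.24 to 4.46 TPM in the other 3 mice, a gap of 0.901 of the range. Both libraries stood apart from the other ConA libraries on the second principal component. The response of Hbegf to ConA differed between the genotypes, by 1.55 on the log2 scale (interaction in limma, adjusted p = 0.0253), with all 4 KO ConA mice above all 4 WT ConA mice. It was not called with WT saline replicates 2 and 3 averaged (adjusted p = 0.0842, range over 22 settings 0.00805 to 0.114).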

How the results depend on the processing

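Of 551 values of single genes under alternative settings, 515 stayed on the same side of the threshold, 21 lost and 15 gained a call, and 0 called values changed sign, while 13 values that were not called did. In KO ConA against KO saline, a filter at a TPM of 5 left 4 calls of the main 7 because fewer genes were tested. In KO saline against WT saline, the 1 call became 0 with all 14 libraries in the fit, with WT saline replicates 2 and 3 averaged, and with averaging and rescaling. In KO ConA against WT ConA, the 0 calls became 1 with the replicate block and 2 with all 14 libraries in the fit. For the interaction, the 1 call became 0 with the pair averaged, with or without rescaling, and 3 without both ConA replicates 3. The cause of these changes was not tested. Leaving out 1 library at a time gave 2 to 5 calls in WT ConA against WT saline, 0 to 2 in KO saline against WT saline and 0 to 2 for the interaction.

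Between the genotypes, mice were correlated over the tested genes after each gene was centred within its group. Same-numbered mice gave -0.0116 to 0.411 after ConA and -0.00236 to 0.344 in saline. Differently numbered mice gave -0.378 to 0.255 after ConA and -0.307 to 0.272 in saline. The same-numbered values were not all above 0.1, so the numbers were not taken as pairs. With the replicate block 3, 7, 1, 1 and 1 members were called in the 5 comparisons, in the order of the report's plot of fitted differences. Among all genes, KO saline against WT saline gave 2009 calls (659 higher), 1512 rescaled (742 higher), 958 without a filter, 332 with all 14 libraries in the fit, 55 with the pair averaged, and 54 to 2743 with 1 library left out. KO ConA against WT ConA gave 45 calls (36 higher), 25 rescaled (12 higher), 3 without a filter, 18 without trend, 140 with the block, 640 with all 14 libraries and 5 to 64 with 1 library left out. The interaction gave 541 calls, 345 without a filter, 358 with the block, 28 with the pair averaged, 7 with the pair averaged and rescaled, 23 to 768 with 1 library left out and 1586 without both ConA replicates 3. Depth, which is unknown, may limit the low genes Areg, Ereg, Btc and Hgf, and Hbegf in saline. The counting error of their low values was not available here.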
